A study of Danio rerio with 14 samples.

Results

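The genes described here mark the ventral and lateral mesoderm of the zebrafish gastrula and the blood and vessel cells that come from it. They were chosen by name as drl, zgc:136538, osr1, hand2, tal1, lmo2, fli1a and gata1a, and for each the transcript row with the most reads was taken. Of these 8 genes, 7 had a row among the 13830 genes of the table, and gata1a was not analysed here. The rows drl (RefSeq NM_130977) and zgc:136538 (NM_001045237) held equal counts in 13 of the 14 libraries and differed by 1 count in the other. RefSeq lists zgc:136538 as a synonym of drl, so the 7 rows stand for 6 distinct genes, and the values of zgc:136538 are those given for drl.

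RNA from pools of whole embryos was sequenced in 14 libraries to ask which genes depend on BMP signaling and which respond to it without new protein synthesis. Wild-type embryos and bmp7 mutants, which are homozygous for the sb1aub allele of bmp7a, gave 2 libraries each at 6 hpf (shield) and 2 each at 8 hpf (70% epiboly), with 40 embryos per library. The other 6 libraries, of 50 embryos each, came from bmp7 mutants placed at 4 hpf in 10 μg/ml cycloheximide (CHX, an inhibitor of translation) for 30 minutes. Of these, 3 were then given 10 pg of human BMP2/7 heterodimer protein between the cells (3 nl at 120 nM) and 3 were not, and RNA was taken 90 minutes after the injection. The labels give 4 hpf as the stage of both CHX groups and call the controls at 6 and 8 hpf wild-type, whereas the headings of the count table mark those controls as Aub-/+, which reads as heterozygous. No library of mutants injected without BMP protein was among the 14, so injection and BMP2/7 cannot be told apart. The mutants were bred from homozygous adults that had been rescued as embryos, so their line differs from the controls in its parents too. Nothing in the labels says that replicate libraries came from separate clutches, so the p-values measure the spread between these pools.

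BMP ligands form a gradient with its high point on the ventral side of the gastrula, where phosphorylated Smad5 turns on genes for ventral fates. Ventral and lateral mesoderm forms at the margin and gives rise to the lateral plate, from which heart, vessels, blood and fin buds arise, and next to it the intermediate mesoderm forms the pronephric kidney. Bmp7 acts in this gradient as a heterodimer with Bmp2, and embryos without it lack ventral tissues. Among the genes here, drl (draculin) encodes a zinc finger protein of early lateral plate and blood precursors. The gene osr1 encodes a zinc finger factor of lateral and intermediate mesoderm, and hand2 a bHLH factor of the lateral plate used in heart and fin. In blood and vessel precursors, tal1 encodes a bHLH factor, lmo2 a LIM-domain adaptor that joins Tal1 to Gata factors, and fli1a an ETS factor of the endothelium.

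Levels are CPM, that is, counts brought to a common library size, here with TMM factors over the 14 libraries. Total counts ran from 5034277 to 23153881 per library, the lowest being replicate 1 of the bmp7 mutants at 8 hpf. The transcript of bmp7a stood at 69.9 ± 2.74 CPM in wild-type and 2.94 ± 1.17 CPM in mutants at 6 hpf (SD, n = 2 each), and at 47.1 ± 2.64 and 0.756 ± 0.320 CPM at 8 hpf (SD, n = 2 each). Under CHX the mutants held 16.7 to 32.7 CPM of bmp7a. Marker genes of early mesoderm, endoderm, neural and non-neural ectoderm, enveloping layer and organizer were read in every group, with at most 1 marker of a list at 0 counts. The summed level of the 5 enveloping layer markers was 6800 to 10300 CPM in the 8 untreated libraries and 145 to 925 CPM in the 6 CHX libraries.

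Of the members tested in untreated embryos, drl had the widest difference between genotypes. Its levels at 6 hpf were 15.8 and 4.42 CPM in wild-type (235 and 79 counts) and 2.45 and 1.59 CPM in mutants (24 and 15 counts). At 8 hpf they were 8.38 and 3.17 CPM in wild-type (153 counts in all, 42 of them in replicate 2) and 0.246 and 0.132 CPM in mutants, which rest on 1 and 2 counts. The genotypes did not overlap at either stage, and the mutants at 8 hpf were the lowest group of the 6. With 2 libraries a group, lack of overlap is common even without a difference. Its share over all genes was not taken, so it is only a description here and below.

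**Figure D1:**
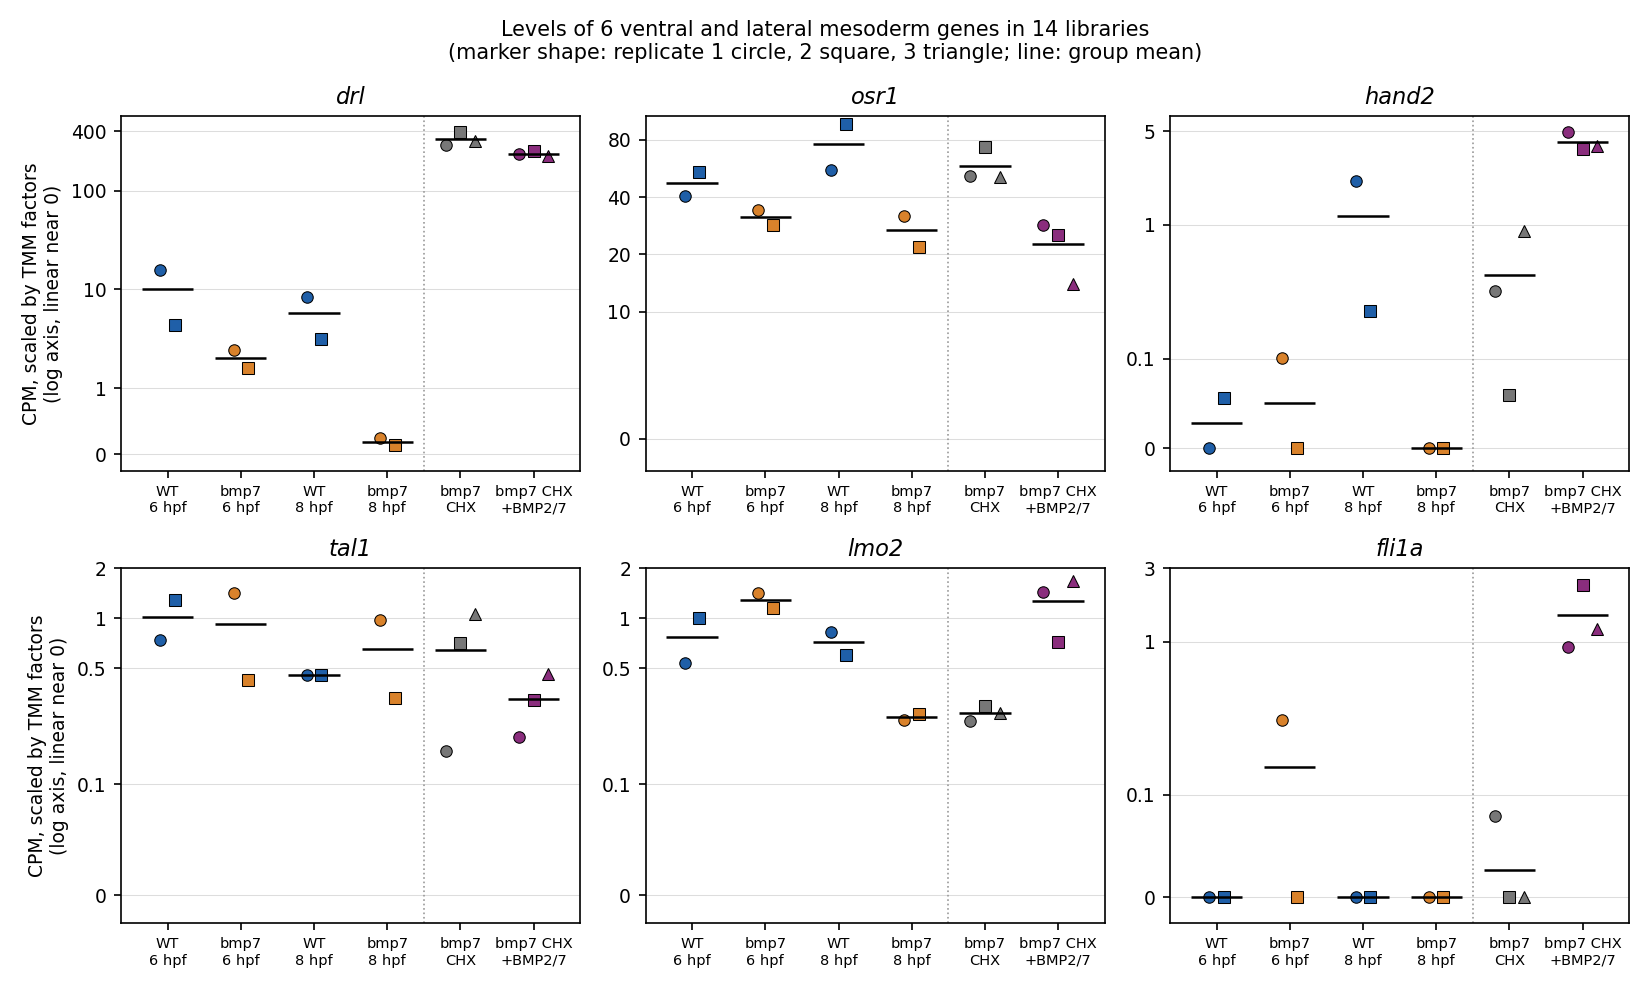
CPM (scaled by TMM factors, log axis that turns linear near 0) of the 6 genes in each of the 14 libraries, by group. Points are libraries, their shape gives the replicate number, lines are group means, and the dotted line separates untreated from CHX libraries. drl is at 225 to 392 CPM in the CHX libraries and at most 15.8 CPM in the others, while hand2 and fli1a are highest in the 3 libraries with BMP2/7 protein.

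Differences were tested with the quasi-likelihood test of edgeR, with Benjamini-Hochberg adjustment over all genes tested and a threshold of 0.05. At 8 hpf, drl was higher in wild-type by 5.07 on the log2 scale (standard error 0.99, adjusted p = 0.0325). By counts summed over each group and scaled for depth, the ratio was 37.0, with a counting interval at the 95% level of 12.4 to 181. At this stage 3 of the 5 rows tested were called, all higher in wild-type (drl, its copy zgc:136538, and osr1), beside 3.06% of the 10012 genes tested that were called, 1.91% higher and 1.15% lower. The call for drl was lost without wild-type replicate 1 at 8 hpf (adjusted p = 0.113, edgeR), without mutant replicate 1 at 8 hpf (0.154) and without mutant replicate 2 at 8 hpf (0.259). With those losses, the adjusted p ran from 0.00022 to 0.259 over 17 alternatives, and the log2 difference from 4.22 to 5.60.

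At 6 hpf the difference in drl was 2.33 on the log2 scale (standard error 0.69, adjusted p = 0.0517, edgeR), just above the threshold, and 8 of 17 alternatives brought it below. Over these the adjusted p ran from 0.00928 to 0.339 and the log2 difference from 1.13 to 3.00, the lowest without wild-type replicate 1 at 6 hpf (1.13, adjusted p = 0.339, edgeR). By edgeR, 0 of the 5 rows tested were called at 6 hpf, where 15.3% of the 10012 genes were, 8.81% in favour of wild-type and 6.52% of the mutants. At an unadjusted p under 0.05 the count was 2, the drl rows, beside 3386 of all 10012 genes. DESeq2 also called 2 rows. The 2 rows are 1 gene, so these counts carry no weight. That the genotype difference was wider at 8 than at 6 hpf could not be told from the spread (interaction of 2.73 on the log2 scale, standard error 1.25, adjusted p = 0.875, edgeR). In that interaction 0 of all 10012 genes were called by edgeR (0%), 554 had an unadjusted p under 0.05 and DESeq2 called 15, none of them a member.

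The replicates of drl were far apart in wild-type embryos. Replicate 1 held 3.58 times the level of replicate 2 at 6 hpf and 2.64 times at 8 hpf. A gap as wide or wider was seen in 3.10% of 9499 genes at 6 hpf and 6.11% of 9469 genes at 8 hpf, and the median gap was 1.28-fold and 1.27-fold. For osr1 the order was the other way, with replicate 2 at 1.33 times replicate 1 at 6 hpf and 1.73 times at 8 hpf. The pools thus differed gene by gene, and the wild-type mean of drl rests mostly on replicate 1.

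The 3 neighbours of drl encode related zinc finger proteins, and their differences between genotypes had the same sign. In the table they are named si:dkey-261j4.3, si:dkey-261j4.4 and si:dkey-261j4.5, and RefSeq calls them drll.1, drll.2 and drll.3. In the RefSeq annotation of GRCz12tu these 3 genes and drl lie side by side on chromosome 5 with 0 other protein-coding genes between them, and the spans of drll.1 and drl overlap, so that some of their reads may be shared. At 6 hpf all 3 were higher in wild-type, with log2 differences of 1.93 (drll.1, standard error 0.52), 4.06 (drll.2, standard error 0.92) and 1.86 (drll.3, standard error 0.48) and adjusted p of 0.0382, 0.0236 and 0.0345 (edgeR). Without wild-type replicate 1 at 6 hpf these differences were 1.47, 2.77 and 1.15, and without mutant replicate 2 at 6 hpf 1.37, 3.33 and 1.39. In either case all 3 calls were lost. At 8 hpf, drll.1 was higher by 5.22 (standard error 0.71, adjusted p = 0.00765) and drll.3 by 3.67 (standard error 0.55, adjusted p = 0.0120), while drll.2 missed the threshold at 4.96 (standard error 1.15, adjusted p = 0.0548, edgeR). Beside these, 8.81% of all genes tested were called higher at 6 hpf and 1.91% at 8 hpf. With 7 and 2 counts in mutants at 6 and 8 hpf, drll.2 passed the filter through wild-type libraries, so its call cannot be weighed against these shares.

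From 6 to 8 hpf, 2 of the 3 drl-like genes fell in mutants, where 5.58% of all genes tested were called lower. The level of drll.3, the row of the family with the most reads, was 63.9 ± 34.3 CPM in wild-type at 6 hpf and 46.5 ± 15.3 CPM at 8 hpf, against 17.8 ± 9.81 and 3.71 ± 0.660 CPM in mutants (SD, n = 2 each). In mutants drll.1 fell by 4.08 (standard error 0.72, adjusted p = 0.0110, edgeR) and drll.3 fell by 2.27 (standard error 0.54, adjusted p = 0.0306, edgeR) on the log2 scale. For drl the estimate was -3.54 (standard error 1.05, adjusted p = 0.0628, edgeR) and for drll.2 -1.72 (standard error 1.41, adjusted p = 0.464, edgeR). In wild-type none of the 4 was called between the stages, and drl gave -0.81 (standard error 0.64, adjusted p = 0.553, edgeR).

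**Figure D2:**
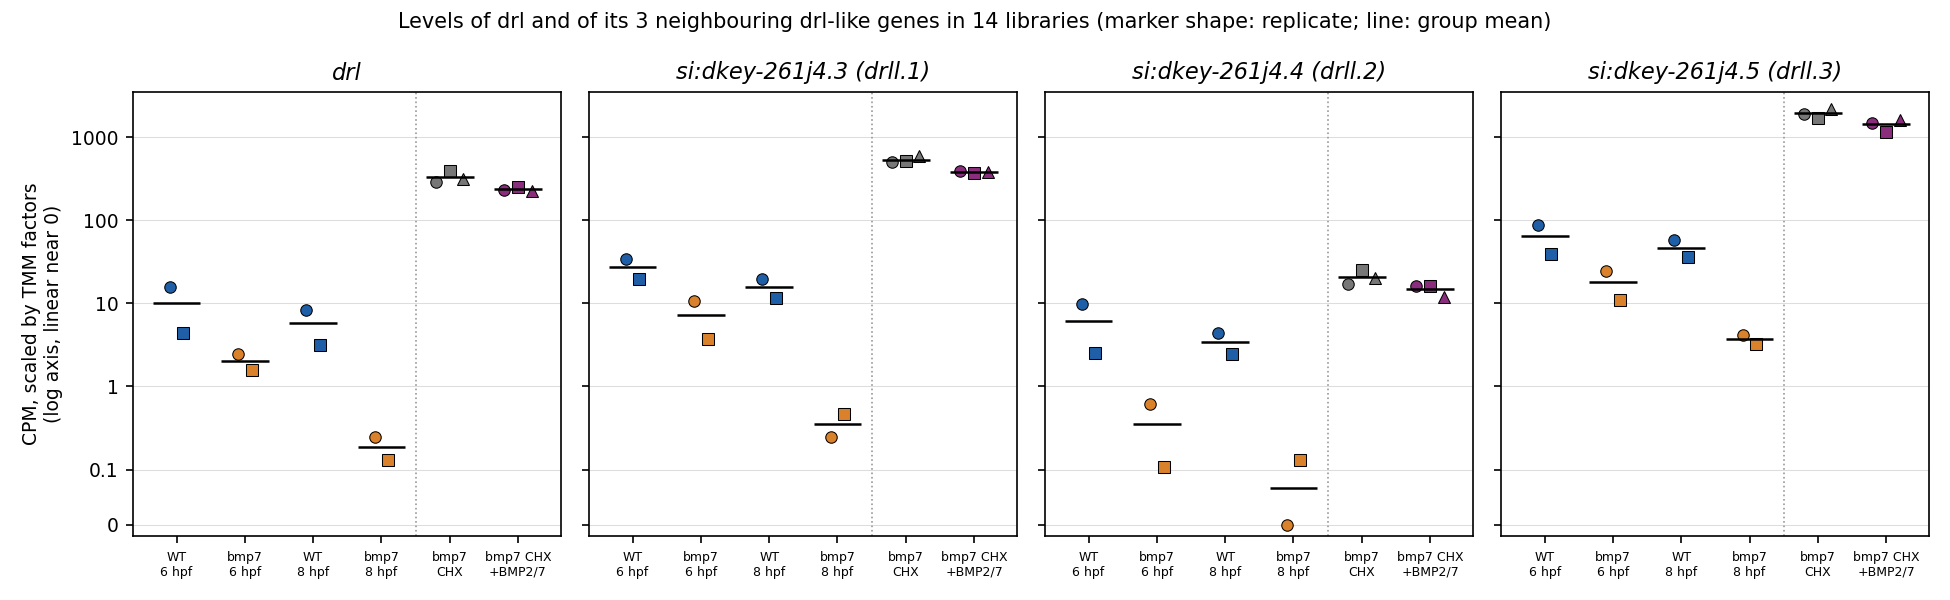
CPM (scaled by TMM factors, log axis that turns linear near 0) of drl and of its 3 drl-like neighbours in each library, by group. Points are libraries with the replicate number as shape, and lines are group means. All 4 genes are lowest in the bmp7 mutants at 8 hpf and highest under CHX, and drll.2 has the lowest level of the 4 there, at 12.1 to 25.2 CPM.

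The highest levels of drl by far were found in CHX-treated mutants. They were 292, 392 and 315 CPM under CHX alone (3652, 6598 and 3522 counts) and 233, 249 and 225 CPM with BMP2/7 protein (4843, 3108 and 2423 counts). By summed counts scaled for depth, the group with CHX alone held 168 times the level of untreated mutants at 6 hpf (13772 counts against 39). It held 35.4 times that of wild-type at 6 hpf (counting interval 31.7 to 39.7). Scaled by library size alone these ratios were 230 and 46.2. Ranked by the difference in log2(CPM + 0.5) of the group means between CHX-treated and 6 hpf mutants, the drl rows stood at rank 1 of 9557 genes, drll.3 at rank 3, drll.1 at rank 4 and drll.2 at rank 12.

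The rows of drl and its neighbours did not stand in 1 ratio in all groups. Not corrected for length, and so of use only between groups, the CPM of drll.2 was 0.607 times that of drl in wild-type at 6 hpf and 0.601 times at 8 hpf, but 0.0625 times under CHX alone and 0.0631 times with BMP2/7. In mutants it was 0.178 times at 6 hpf (0.0667 and 0.250 in the 2 libraries) and 0.35 times at 8 hpf, both from few counts. For drll.3 the ratio to the CPM of drl was 6.31 in wild-type and 8.84 in mutants at 6 hpf, 8.05 and 19.6 at 8 hpf, and 5.80 under CHX alone. The ratio of 19.6 rests on 1 and 2 counts of drl. The CHX and untreated libraries differ in drug, in the stage on their labels and in the number of embryos, so these influences on drl cannot be told apart, and no test was made. The summed enveloping layer markers, at 6800 CPM or more untreated and 925 CPM or less under CHX, moved between the same libraries, and their part in these levels was not tested.

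Adding BMP2/7 protein under CHX did not raise drl. All 3 libraries with protein lay below all 3 without, with a log2 difference of -0.47 (standard error 0.13, adjusted p = 0.148, edgeR). With the replicate number as a block, since same-numbered CHX libraries deviated together, the difference was -0.46 and was called (adjusted p = 0.00829, edgeR). The drl-like genes gave -0.46 (drll.1, adjusted p = 0.0808), -0.46 (drll.2, adjusted p = 0.485) and -0.41 (drll.3, adjusted p = 0.353, edgeR), and none was called in that fit. With the block they gave -0.46 (adjusted p = 0.00607), -0.45 (adjusted p = 0.133) and -0.42 (adjusted p = 0.00393, edgeR), so that drll.1 and drll.3 were then called. Over all genes the block raised the number of calls under CHX as well, from 215 to 746 of 9444. Thus the sign of drl under CHX was opposite to that of wild-type against mutant embryos, and the fits share no library.

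The second gene called at 8 hpf, osr1, was the best measured of the set in untreated embryos. Its levels were 40.5 and 53.9 CPM in wild-type and 34.1 and 28.6 CPM in mutants at 6 hpf (602, 964, 335 and 271 counts). At 8 hpf they were 55.7 and 96.4 CPM in wild-type and 31.9 and 22.0 CPM in mutants (738, 1276, 130 and 333 counts). The genotypes did not overlap at either stage. At 8 hpf osr1 was higher in wild-type by 1.49 (standard error 0.33, adjusted p = 0.0473, edgeR), 3.15-fold by counts, and at 6 hpf the difference was 0.60 (standard error 0.32, adjusted p = 0.218, edgeR).

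The 8 hpf call of osr1 was close to the threshold. It was lost without wild-type replicate 2 at 8 hpf (adjusted p = 0.137), without mutant replicate 1 or 2 at 6 hpf (0.0587 and 0.0609) and without mutant replicate 1 or 2 at 8 hpf (0.145 and 0.264, edgeR). Over 17 alternatives the adjusted p ran from 0.000712 to 0.264, and the log2 difference from 1.03 to 1.85. Between the stages, osr1 gave 0.70 in wild-type (standard error 0.32, adjusted p = 0.293) and -0.19 in mutants (standard error 0.33, adjusted p = 0.740, edgeR), and the difference of these, 0.90 (standard error 0.45, adjusted p = 0.886, edgeR), was not called.

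Under CHX, osr1 was lower where BMP2/7 protein had been given. The libraries with protein held 28.6, 25.4 and 14 CPM (593, 316 and 151 counts) and those without 51.3, 73.1 and 51.0 CPM (642, 1229 and 571 counts), with no overlap. The log2 difference was -1.35 (standard error 0.26, adjusted p = 0.0423, edgeR), and with the replicate block it was -1.37 (adjusted p = 0.000734, edgeR). The call without the block did not survive the loss of any of the 6 libraries. The adjusted p was then 0.129 without CHX replicate 1, 0.0880 without CHX replicate 2, 0.0652 without CHX replicate 3, and 0.0964, 0.102 and 0.0555 without BMP2/7 replicate 1, 2 and 3. Among all 9444 genes tested under CHX, 2.28% were called, 1.91% higher and 0.371% lower with BMP2/7. Of the 5 rows tested here 3 were called, hand2 and fli1a higher and osr1 lower. Both hand2 and fli1a passed the filter only through the libraries with protein, so this count cannot be weighed against those shares.

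So osr1 was higher in wild-type than in mutant embryos at 8 hpf and lower with BMP2/7 protein than without under CHX, in fits with no library in common. In the order of its mean levels, the mutants given BMP2/7 under CHX (22.6 CPM), the mutants at 8 hpf (27.0 CPM) and at 6 hpf (31.4 CPM) overlapped as neighbours, then came wild-type at 6 hpf (47.2 CPM), CHX alone (58.4 CPM) and wild-type at 8 hpf (76.1 CPM), again overlapping as neighbours. Only between the mutants and the wild-type embryos at 6 hpf was there a gap.

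The lateral plate gene hand2 was near 0 in most untreated libraries. It had 0 and 1 counts in wild-type and 1 and 0 in mutants at 6 hpf. At 8 hpf the wild-type libraries held 28 and 3 counts (2.11 and 0.227 CPM) and the mutants 0 and 0, which allows up to 0.156 CPM over both libraries. Wild-type embryos at 8 hpf thus held at least 7.49 times as much hand2 as mutants, against 3 counts over the group, and 38.3 times as much as wild-type at 6 hpf (31 against 1 counts, counting interval 6.39 to 1560). Replicate 1 held 9.33 times the level of replicate 2, a gap matched in 0.634% of 9469 genes, so the size of either ratio depends on that pool. The gene passed the filter on low counts in no untreated comparison and was not tested there. With no filter, the 8 hpf difference was not called (adjusted p = 0.0898, edgeR).

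With BMP2/7 protein under CHX, hand2 rose. Its levels were 4.91, 3.69 and 3.9 CPM with protein (190 counts in all) and 0.319, 0.0595 and 0.893 CPM without (4, 1 and 10 counts). The groups did not overlap, and the log2 difference was 3.41 (standard error 0.62, adjusted p = 0.0292, edgeR), a ratio of 11.7 (counting interval 6.90 to 21.3). With the replicate block it was 3.46 (adjusted p = 0.00131, edgeR). The call was lost without CHX replicate 1 (adjusted p = 0.180), without BMP2/7 replicate 1, 2 or 3 (0.153, 0.0709 and 0.0717) and with all 14 libraries in the fit (0.0636, edgeR). The mean with protein was 4.17 ± 0.654 CPM (SD, n = 3). By summed counts scaled for depth, this group held 3.69 times the level of wild-type embryos at 8 hpf (counting interval 2.51 to 5.58), which had no CHX.

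The endothelial gene fli1a was not detected in wild-type embryos. It had 0 counts in all 4 wild-type libraries, which allows up to 0.0916 CPM at 6 hpf and 0.113 CPM at 8 hpf, 3 and 0 counts in mutants at 6 hpf and 0 in both at 8 hpf. Under CHX alone it had 1, 0 and 0 counts. With BMP2/7 protein it had 19, 29 and 13 counts (0.915, 2.33 and 1.21 CPM), so that it was read in all 3 libraries with protein and in 2 of the other 11.

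The log2 difference of fli1a under CHX was 5.47 (standard error 0.88, adjusted p = 0.0176, edgeR), and the ratio of 61 to 1 counts was 56.2 (counting interval 9.72 to 2260). With the replicate block it was 5.56 (adjusted p = 0.00161, edgeR). The call was lost without CHX replicate 1, 2 or 3 (adjusted p = 0.103, 0.0581 and 0.0581, edgeR) and kept without any one of the libraries with protein. Both fli1a and hand2 entered the test only through the libraries with protein, since a gene with few reads everywhere is removed by the filter, so their share among the tested rows carries no weight.

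The blood gene tal1 was read at a low level in every group and was called in none of the comparisons in which it was tested. Its counts at 6 hpf were 11 and 23 in wild-type and 14 and 4 in mutants (0.741, 1.29, 1.43 and 0.423 CPM), and at 8 hpf 6 and 6 in wild-type and 4 and 5 in mutants (0.453, 0.453, 0.982 and 0.331 CPM). The genotypes overlapped at both stages. The log2 difference was 0.14 at 6 hpf (standard error 0.77, adjusted p = 0.911) and -0.29 at 8 hpf (standard error 0.93, adjusted p = 0.886, edgeR). Under CHX it had 2, 12 and 12 counts without and 4, 4 and 5 with BMP2/7 protein, overlapping and below the filter.

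The adaptor gene lmo2 was likewise read in few counts, and its groups were ordered differently. At 6 hpf it had 8 and 18 counts in wild-type (0.539 and 1.01 CPM) and 14 and 11 in mutants (1.43 and 1.16 CPM), with the mutants above. At 8 hpf it had 11 and 8 counts in wild-type (0.831 and 0.605 CPM) and 1 and 4 in mutants (0.246 and 0.265 CPM), with the wild-type above. The genotypes did not overlap at either stage, in opposite order, but with 2 libraries a group and so few counts this order carries no weight. None of this was called, with a log2 difference of -0.72 at 6 hpf (standard error 0.61, adjusted p = 0.433), 1.42 at 8 hpf (standard error 0.77, adjusted p = 0.300) and an interaction of 2.14 (standard error 0.99, adjusted p = 0.876, edgeR).

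Between the stages lmo2 gave -2.24 in mutants (standard error 0.76, adjusted p = 0.0902, edgeR) and -0.10 in wild-type (standard error 0.62, adjusted p = 0.948, edgeR). Under CHX it had 3, 5 and 3 counts without and 30, 9 and 18 with BMP2/7 protein (0.240, 0.297 and 0.268 against 1.44, 0.722 and 1.67 CPM). The groups did not overlap, and the ratio was 4.77 (counting interval 2.48 to 10.1). The gene fell below the filter and was not tested. With a minimum count of 5 the log2 difference was 2.23 (adjusted p = 0.0608), and with all 14 libraries in one fit 2.21 (adjusted p = 0.0338, edgeR).

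**Figure D3:**
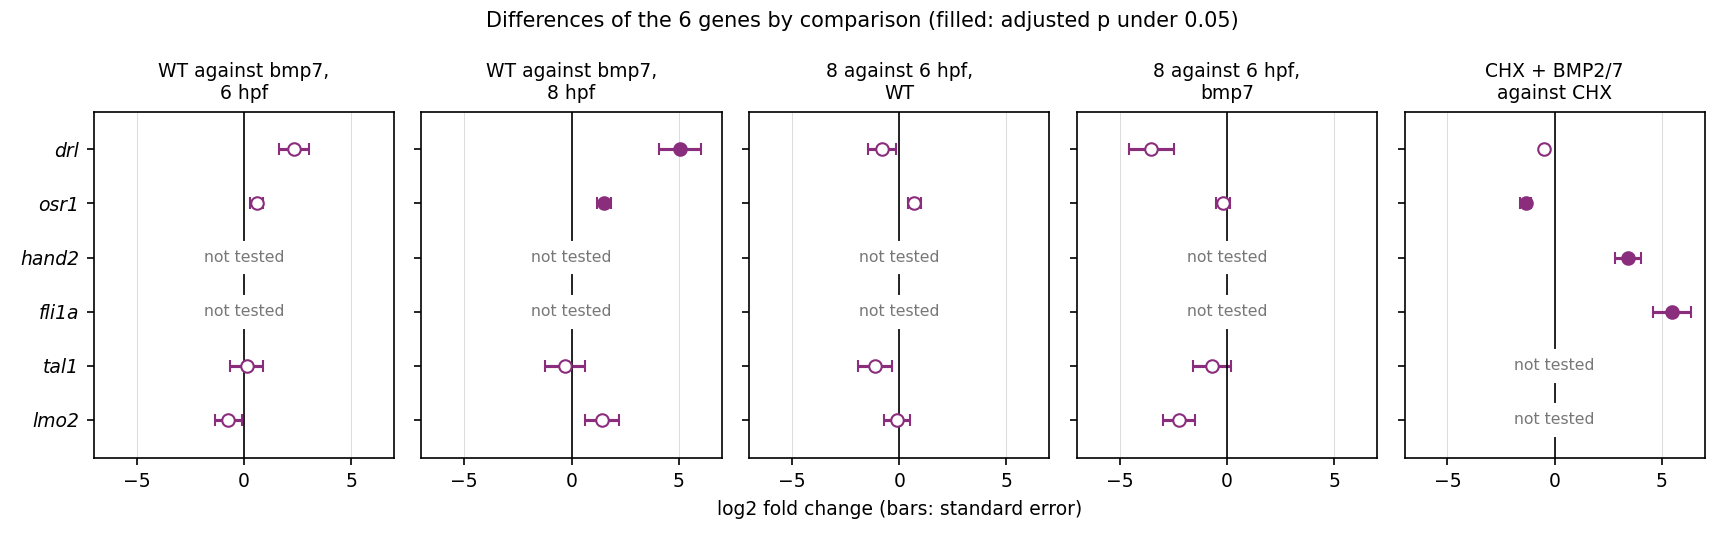
Log2 fold change (x axis) of the 6 genes (rows) in 5 comparisons, first group over second, with bars for the standard error. Filled points have an adjusted p under 0.05. drl and osr1 are called at 8 hpf, hand2, fli1a and osr1 under CHX, the last with a negative sign, and no gene is called between stages.

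Between 6 and 8 hpf, 0 of the 5 rows tested were called by edgeR in wild-type embryos, where 1.73% of the 10012 genes were (1.04% higher and 0.689% lower at 8 hpf), and 0 had an unadjusted p under 0.05 or were called by DESeq2. Over all genes 1741 had an unadjusted p under 0.05 there. In mutants 0 rows were called by edgeR as well, where 10.9% of the genes were (5.34% higher and 5.58% lower at 8 hpf). There 3 rows, drl with its copy zgc:136538 and lmo2, had an unadjusted p under 0.05, beside 2819 of the 10012 genes. DESeq2 called 2 rows. In bulk RNA from whole embryos, fewer cells of a type and less RNA per cell cannot be told apart, which holds for each difference given here.

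Markers of other tissues moved in the same comparisons. The summed level of the 4 non-neural ectoderm markers was 488 to 592 CPM in wild-type and 280 to 331 CPM in mutants at 6 hpf, 704 to 815 and 159 to 198 CPM at 8 hpf, and 547 to 679 CPM under CHX alone against 1220 to 1550 CPM with BMP2/7 protein. The list median was 1.02, 2.90 and 1.33 on the log2 scale. Of the 4, foxi1 and tfap2c were called higher in wild-type at both stages, and these and gata3 with BMP2/7. Over all genes tested, 8.81% were called higher at 6 hpf, 1.91% at 8 hpf and 1.91% with BMP2/7. All 4 markers were above 0 counts in every group.

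The 5 neural markers summed to 599 to 717 CPM in wild-type and 943 to 946 CPM in mutants at 6 hpf, and to 684 to 886 and 1170 to 1230 CPM at 8 hpf, with 0 of 4 tested called by edgeR. Over all genes tested, 6.52% were called lower at 6 hpf and 1.15% at 8 hpf. All 4 estimates were negative at both stages, with list medians of -0.585 and -0.444. With the replicate block otx2 was called lower in wild-type at both stages (-1.09 and -1.21, adjusted p = 0.0199 and 0.0276, edgeR). With BMP2/7 the 5 markers stood at 473 to 563 CPM against 178 to 271 CPM without, and sox3 was called higher. The 3 organizer markers summed to 740 to 940 CPM in wild-type and 1580 to 1770 CPM in mutants at 8 hpf, where chrd was lower in wild-type (-1.15, adjusted p = 0.0426, edgeR) and shha, called at 6 hpf as well, was higher. At 6 and 8 hpf shha had 89 and 130 counts in wild-type and 0 and 1 in mutants. It passed the filter through wild-type libraries alone, so its calls cannot be weighed against the shares over all genes. The 4 early mesoderm markers overlapped between genotypes at each stage, though tbx16 was higher in wild-type at 6 hpf (0.78, adjusted p = 0.0335, edgeR), and stood at 2730 to 3830 CPM with BMP2/7 against 1450 to 1920 CPM without, where ta was called (1.32, adjusted p = 0.00264, edgeR). The part of these markers in the differences of drl, osr1, hand2 and fli1a was not tested.

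Other genes of the same lineages were read from lists drawn up by role. Of the 17 endothelial and hemangioblast genes, 10 were tested at 6 hpf and 3 were higher in wild-type, with a list median of 0.51 on the log2 scale beside 0.02 for all genes tested, of which 8.81% were called higher. These were npas4l, a bHLH-PAS gene upstream of blood and vessels (3.00, standard error 0.71, adjusted p = 0.0271), kdr, a VEGF receptor gene (2.39, standard error 0.41, adjusted p = 0.0103), and gata2a, a GATA factor gene of ventral ectoderm and blood (1.13, standard error 0.27, adjusted p = 0.0269, edgeR). At 8 hpf, 2 of 10 were higher, gata2a and kdr, with a list median of -0.26 beside 0.01 for all genes tested, of which 1.91% were called higher. There npas4l gave 2.39 (standard error 0.65, adjusted p = 0.0814, edgeR), and with the replicate block it was called (2.30, adjusted p = 0.0105, edgeR). The level of npas4l was 5.82 ± 2.15 CPM in wild-type and 0.723 ± 0.275 CPM in mutants at 6 hpf (SD, n = 2 each), without overlap.

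Under CHX, 1 of the 7 endothelial and hemangioblast genes tested was called, gata2a, where 2.28% of all genes tested were called. The gene gata2a had 24185 counts with BMP2/7 protein and 4647 without, and rose by 2.24 on the log2 scale (standard error 0.12, adjusted p = 0.000103, edgeR). By contrast kdr had 4 counts with and 2 without protein, and npas4l 22 and 7, over 3 libraries each. Thus fli1a was read under these conditions where kdr was nearly absent. Of the same list, flt4, tie1, tek, erg, hhex and gata2b passed the filter under CHX and were not called. Their log2 differences ran from -0.61 (hhex) to 0.54 (gata2b).

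Among 16 erythroid genes with a row, 9 were tested at 6 hpf, with a list median of 0.21. Of these, 1 was higher and 2 were lower in wild-type, where 8.81% of all genes tested were higher and 6.52% lower. The repressor gene gfi1aa was higher (74 counts against 1, log2 difference 5.13, standard error 1.40, adjusted p = 0.0401, edgeR). It passed the filter through wild-type libraries alone, so its call cannot be weighed against the 8.81%. Lower were urod, which encodes an enzyme of heme synthesis (-1.06, adjusted p = 0.0184), and slc4a1a, the band 3 anion exchanger (-3.13, adjusted p = 0.0402, edgeR). Of the erythroid genes, 0 of 9 were called at 8 hpf and 0 of 7 under CHX by edgeR, with list medians of 0.01 and 0.21. Over all genes tested, 3.06% were called at 8 hpf and 2.28% under CHX. The 8 hpf estimates kept the 6 hpf signs, at 3.96 (gfi1aa), -0.85 (urod) and -2.55 (slc4a1a). With the replicate block, a pairing not known for untreated libraries, these 3 of 9 were called at 8 hpf. The block raised the number of calls at 8 hpf over all genes as well. Of the myeloid and blood stem cell genes, lcp1, which encodes an actin-bundling protein of leukocytes, was higher in wild-type at 6 and 8 hpf (0.87 and 1.11, adjusted p = 0.0293 and 0.0307, edgeR), 1 of 6 tested each time, with list medians of 0.76 and 0.88. Its level was 91.1 to 392 CPM in untreated embryos. With the replicate block 1 erythroid gene was called under CHX, klf17 (0.51, adjusted p = 0.00201, edgeR). Under CHX, irf8, a macrophage factor gene, was the only 1 of the 5 myeloid genes called, lower with BMP2/7 protein (-2.80, standard error 0.32, adjusted p = 0.00401, edgeR). With protein irf8 was at most at 0.562 CPM, and it passed the filter through the libraries without protein. This count therefore carries no weight. With the block 3 of 5 were called, cebpa (1.46) as higher and irf8 (-2.75) and lcp1 (-0.98) as lower. Over all genes the block called 746 of 9444 under CHX, against 215 without it.

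Of the 13 cardiac and lateral plate genes, the list nearest to hand2, 9 were tested in untreated embryos and 7 under CHX, with a list median of -0.10 at 6 hpf, 0.14 at 8 hpf and 0.46 under CHX. In each of these comparisons except 8 hpf, 1 was called. With the replicate block gata5 was also called higher at 8 hpf (0.70) and tbx1 lower at 6 hpf (-0.68). Over all genes tested, 15.3% were called at 6 hpf, 3.06% at 8 hpf and 2.28% under CHX. The zinc finger factor gene gata4 was higher in wild-type at 6 hpf (97 against 3 counts, log2 difference 4.25, standard error 1.06, adjusted p = 0.0314, edgeR). It passed the filter through wild-type libraries, so the 6 hpf count cannot be weighed against 15.3%. Under CHX the T-box gene tbx5a, used in heart and fin, rose with BMP2/7 protein from 0.639 to 0.951 CPM to 4.97 to 7.79 CPM (log2 difference 2.89, standard error 0.32, adjusted p = 0.00322, edgeR). This gene passed the filter through the libraries with protein, so the CHX count cannot be weighed against 2.28%. With the replicate block 4 of the 7 were called, tbx5a (2.86), tbx20 (2.13) and gata5 (0.48) as higher and gata6 (-0.47) as lower. Over all genes the block called 746 of 9444 under CHX, against 215 without it. Like hand2, tbx5a was higher there than in any untreated library, in which it was at 0.943 CPM or less.

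Intermediate mesoderm, where osr1 also acts, was represented by 14 genes, of which 11 had a row and 4 passed the filter. Of these 4, 0 were called by edgeR between genotypes at 6 or 8 hpf, where 15.3% and 3.06% of all genes tested were. The list median was -1.31 and -0.77 on the log2 scale, with 1 of 4 positive at each stage. Under CHX, where nphs1 passed the filter and wt1b did not, the median was 0.24. There 1 of 4 was called, where 2.28% of all genes tested were. The kidney and brain gene pax2a rose with BMP2/7 protein (log2 difference 3.27, standard error 0.46, adjusted p = 0.0103, edgeR), in the opposite direction to osr1. It was at most at 0.357 CPM under CHX alone and passed the filter through the libraries with protein. This count can therefore not be weighed against that share. In mutants from 6 to 8 hpf, pax2a rose (from 16 to 305 counts, adjusted p = 0.0105) and lhx1a, a LIM homeobox gene of kidney and organizer, fell by 2.80 (adjusted p = 0.00657, edgeR). In that comparison 10.9% of all genes tested were called. In wild-type the estimates between the stages were 1.45 for pax2a and -1.65 for lhx1a, and neither was called.

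The next list held genes for partners of Tal1, Lmo2 and Gata1, in which the median was 0.94 at 6 hpf, 0.79 at 8 hpf and 0.15 under CHX. At 6 hpf, 3 of 8 tested were higher in wild-type and 1 was lower, where over all genes 8.81% were higher and 6.52% lower. Higher were ldb1a and ldb2b, for LIM-domain-binding proteins (1.12 and 7.53 on the log2 scale, adjusted p = 0.0372 and 0.00916), and tcf3a, for an E protein that pairs with Tal1, and lower was the E protein gene tcf12 (-1.28, adjusted p = 0.0318, edgeR). The level of tcf3a was 37.5 to 79.5 CPM in wild-type and 5.71 to 11.8 CPM in mutants (log2 difference 2.75, standard error 0.53, adjusted p = 0.0137, edgeR). The level of ldb2b was 1.88 CPM in wild-type at 6 hpf and 4.68 CPM at 8 hpf, while all mutant libraries together, CHX included, held 1 count. So ldb2b passed the filter through wild-type libraries alone, and its calls cannot be weighed against the shares over all genes. At 8 hpf it was the only 1 of the 8 called (6.26, standard error 0.87, adjusted p = 0.0120, edgeR). The 8 hpf estimates were 0.82 for ldb1a, 1.97 for tcf3a and -1.26 for tcf12. With the replicate block ldb1a (0.78) and tcf3a (1.77) were called higher there and tcf12 (-1.22) lower. Under CHX a different 8 passed the filter, without ldb2b, tcf12 and lmo1, and 0 of them were called by edgeR. Over all genes tested, 3.06% were called at 8 hpf and 2.28% under CHX. The related LIM-only gene lmo1 fell from 6 to 8 hpf in both genotypes, by 2.27 in wild-type (adjusted p = 0.0481) and by 3.68 in mutants (adjusted p = 0.00598, edgeR).

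Between the stages, more list genes were called in mutants, as was the case over all genes (10.9% in mutants and 1.73% in wild-type). In mutants kdr (1.64, adjusted p = 0.0405), isl1, a LIM homeobox gene of heart precursors (5.53, adjusted p = 0.0106), and tcf12 (1.36, adjusted p = 0.0290, edgeR) rose from 6 to 8 hpf. The gene isl1 had 1 count in mutants at 6 hpf and 62 at 8 hpf. It passed the filter through the 8 hpf libraries, so its call cannot be weighed against 10.9%. Also in mutants, klf17, a Krüppel-like factor gene (-0.77, adjusted p = 0.0311), cebpb (-0.72, adjusted p = 0.0377) and lcp1 (-0.98, adjusted p = 0.0236, edgeR) fell. The wild-type estimates of these genes had the same signs, and none was called. They were 1.01 for kdr, 2.38 for isl1, 1.39 for tcf12, -0.56 for klf17, -0.70 for cebpb and -0.73 for lcp1. In wild-type, lmo1 was the only gene of these lineage lists called between the stages, and that call was lost without any 1 of 6 of the 8 libraries.

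Few of the calls in these lists withstood the loss of a library, an alternative chosen after seeing the data. Of the 15 calls at 6 hpf, drl-like genes included, 4 were left without wild-type replicate 1 at 6 hpf and 0 without mutant replicate 2 at 6 hpf. Of the 6 calls at 8 hpf, 0 were left without mutant replicate 1 or without mutant replicate 2 at 8 hpf, and of the 11 between stages in mutants, 0 without mutant replicate 2 at 8 hpf. Under CHX, 3 of 4 held without each library in turn (gata2a, irf8 and tbx5a), and pax2a was lost without BMP2/7 replicate 1 (adjusted p = 0.066, edgeR).

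The genes whose log2(CPM + 0.5) followed each member most closely over the 14 libraries were sought among 9556 others with a mean of at least 1 CPM. For drl, beside its copy, they were drll.3 (Pearson r = 0.996) and dyrk2, a protein kinase gene (r = 0.993). The CHX and untreated libraries form separate clusters for drl, and within the 8 untreated libraries r was 0.981 and 0.958, within the 6 CHX libraries 0.472 and 0.871. The level of dyrk2 moved over a far smaller range, from 26.3 to 78.5 CPM untreated and 155 to 216 CPM under CHX.

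For osr1 the nearest genes were angptl4, which encodes a secreted inhibitor of lipoprotein lipase (r = 0.879), tulp4a (r = 0.787) and fgf24, an FGF ligand gene (r = 0.784). Within the 8 untreated libraries r was 0.821, 0.881 and 0.801 for these genes, and within the 6 CHX libraries 0.989, 0.807 and 0.908. The genes were picked over these same libraries, so such values are no separate check, for drl and hand2 as well. Under CHX, r also takes in the difference between the libraries with and without protein. The level of fgf24 was 21.2 to 50.1 CPM under CHX alone and 6.34 to 8.14 CPM with BMP2/7 protein, without overlap. For hand2 they were sox4a (r = 0.923), scamp3 (r = 0.905) and dlx2a, a homeobox gene of ventral ectoderm borders (r = 0.898). The gene hand2 reached the mean of 1 CPM through the libraries with BMP2/7 protein. Within the untreated libraries, most of which hold 0 or 1 counts of hand2, r was 0.648, 0.535 and 0.786, and within the CHX libraries 0.978, 0.958 and 0.933. The level of dlx2a was 19.8 to 40.3 CPM with BMP2/7 protein and at most 0.238 CPM under CHX alone. The other members, at a mean under 1 CPM, were too sparse for such a ranking.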

How the data were processed

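RNA of whole zebrafish embryos was measured by stranded poly(A) sequencing in 14 libraries. The authors used the RNA-seq Unified Mapper and the build GRCz11 and deposited raw counts, 1 row per RefSeq transcript. No version of the mapper, and no word on strand in counting, is given in the sources used here. The authors also deposited normalized log2 values, used here only to check which libraries each heading joins, and edgeR fold changes and p-values of their own comparisons, which were not used. Library headings call controls Aub-/+ and mutants Aub-/-, and the comparison headings of untreated libraries have them reversed. The library headings were followed, since the untreated Aub-/- libraries are low in bmp7a.

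Testing of the counts was done in edgeR 4.0.16 (R 4.3.3) by quasi-likelihood, with TMM scaling and filterByExpr at a minimum count of 10. A Benjamini-Hochberg adjusted p under 0.05 was a call. One fit held the 8 untreated libraries in 4 groups (10012 genes) and another the 6 CHX libraries in 2 (9444 genes). Intervals and floors (3 counts) cover counting error only. The script was tested on simulated data. CHX libraries with the same number deviated together (correlations of 0.403, 0.708 and 0.634), so the number was taken to pair them, a pairing that comes from the data and not the labels. Alternatives were DESeq2 1.42.0, other scalings, filters and library sets, summed transcripts, the replicate block and leaving out each library. A group left with 1 library in this way was assumed to vary like the other groups. For list genes, the block and the loss of each library were chosen after seeing the data.

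The members and gene lists were chosen with earlier results of these data known. Named are all members, bmp7a, genes of the lineage lists called in at least 1 test, and, for members at a mean of at least 1 CPM, the 3 genes with the highest correlation. RefSeq tables of GRCz12tu gave names and gene order only.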

Additional observations from a re-analysis of the deposited data

How the results depend on the processing

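No direction of a called value turned under any alternative. Of the counts of rows called, the 6 hpf count of 0 became 2 (drl and its copy) with library size alone, no filter, the replicate block, DESeq2 or all 14 libraries in the fit, and the mutant stage count of 0 became 2 with no filter, the replicate block or DESeq2 and 3 with all 14 libraries. The CHX count of 3 became 5 with the replicate block. Leaving out 1 library gave 0 to 2 rows at 6 hpf, 0 to 3 at 8 hpf, 0 to 2 between stages in mutants and 0 to 1 under CHX. For the untreated libraries, with 2 libraries a group, the replicate number is not known to pair them. Same-numbered libraries of the 2 genotypes correlated at 0.202 at 6 hpf and -0.016 at 8 hpf. Same-numbered libraries of 6 and 8 hpf correlated at 0.474 in wild-type and 0.351 in mutants. The stage comparisons without the block take no account of this.

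Over all genes, the calls at 6 hpf were 1535, but 2417 with the replicate block, 880 with the stage fitted alone and 2420 with all 14 libraries. At 8 hpf they were 306, but 958 with the block, 882 with DESeq2, 603 with no filter, 565 with the stage alone and 954 with all 14. Between stages they were 173 in wild-type and 1094 in mutants, and 519 and 1658 with the block, 566 and 1505 with DESeq2, 373 and 1303 with no filter, and 543 and 1822 with all 14. Under CHX they were 215, but 746 with the block and 376 with DESeq2. Leaving out 1 library gave 247 to 1565 calls at 6 hpf (lowest without mutant replicate 2 at 6 hpf), 46 to 454 at 8 hpf, 12 to 223 between stages in wild-type (lowest without wild-type replicate 1 at 6 hpf), 53 to 1242 in mutants (these and the 8 hpf count lowest without mutant replicate 2 at 8 hpf), 0 to 6 in the interaction and 92 to 193 under CHX (lowest without CHX replicate 1). The cause was not tested. Counts of 34 or fewer over a group limit tal1, lmo2, hand2 and fli1a in untreated embryos, where the standard errors of tal1 (0.77 and 0.93) were above those of osr1 (0.32 and 0.33).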
